A study of Mus musculus with 3 samples.

Results

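The GABA-A receptor subunit genes Gabra2, Gabra3, Gabra4, Gabra5, Gabrb1, Gabrb2 and Gabrd were taken by their symbols from the deposited feature list, which held all 7 among 27998 mouse genes. The cells came from the nucleus accumbens, a region of the ventral striatum, of Thy1::ChR2 mice, which carry the light-gated cation channel channelrhodopsin (ChR2) as a transgene under the Thy1 promoter, active mainly in projection neurons. All 3 samples form 1 group: FLiCRE labelling was done while ChR2 was stimulated, and tissue was taken from a coronal dissection of 400 um. FLiCRE is a reporter system in which a rise of calcium that coincides with light releases a transcription factor, which drives a reporter transcript. There was no unstimulated or unlabelled group, so comparisons were made between cell classes, and between reporter-positive and reporter-negative cells, inside the same libraries. The number of animals behind each library and the age of the mice are not given in the sources used here, and p-values measure only the spread between these 3 libraries.

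GABA-A receptors are chloride channels opened by GABA, the main inhibitory transmitter of the forebrain, and are built as pentamers, most often of alpha, beta and gamma or delta subunits. The alpha subunit sets much of the affinity for GABA and the response to benzodiazepines, the beta subunit is needed for assembly and surface transport, and the delta subunit, encoded by Gabrd, replaces gamma in receptors outside the synapse that carry tonic current. In the striatum nearly all neurons release GABA: the spiny projection neurons that express the D1 or the D2 dopamine receptor, and several kinds of interneuron.

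Cells were assigned by counts of detected marker genes, with no GABA-A subunit among the markers and no clustering, which gave 3646 neurons in 6 classes. These were 1746 D1 spiny neurons, 1187 D2 spiny neurons, 341 Tshz1 neurons, 270 glutamatergic neurons, 57 Sst-Npy interneurons and 45 Pvalb interneurons. A further 1111 neurons met no class rule, and the cholinergic gate held 10 cells, all of library 2. Glia were 904 astrocytes, 1335 oligodendrocytes, 130 oligodendrocyte precursor cells (OPCs) and 650 microglia; 452 endothelial and 272 mural cells served as types outside the nervous lineage. After filtering, the libraries held 2306, 5783 and 1834 cells with 2788685, 14563414 and 6267259 UMIs, and library 1 was the shallowest at a median of 985.5 UMIs a cell against 2084 and 2674. Pairs of libraries shared 13, 7 and 22 barcode sequences. A class entered a comparison in a library with at least 10 of its cells, so the Sst-Npy class had 2 libraries and the Pvalb class 1.

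The gates were checked on their defining genes, in CPM, the UMIs of a gene scaled to a total of 1e6 UMIs of the class in a library. Drd1, the D1 receptor, averaged 683 CPM in D1 and 10.6 in D2 spiny neurons, and Adora2a, the adenosine receptor of D2 neurons, 14.7 and 1034 CPM. Drd2, the receptor that names the D2 class, averaged 2.5 CPM there, so that class rests on Adora2a, Penk and its other markers. Slc17a7, the vesicular glutamate transporter, averaged 1739 CPM in glutamatergic neurons and 19.8 in spiny neurons, while Ppp1r1b, a spiny-neuron gene, was at 292 and 2048 CPM. From where in the dissected slice the glutamatergic cells came was not tested.

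Promoter sequence is shown for the alpha genes whose levels differed most between neuron classes: Gabra2 and Gabra4, which were higher in spiny neurons, and Gabra3, which was higher in glutamatergic neurons. Each run is RefSeq sequence of build GRCm38.p6 before the annotated transcription start. It is read on the minus strand and written 5′ to 3′, with CG dinucleotides in capitals. The Gabra2 and Gabra3 runs end directly before the start, and the Gabra4 run ends 55 bases short of it.

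Gabra2, chr5:71095850-71096099: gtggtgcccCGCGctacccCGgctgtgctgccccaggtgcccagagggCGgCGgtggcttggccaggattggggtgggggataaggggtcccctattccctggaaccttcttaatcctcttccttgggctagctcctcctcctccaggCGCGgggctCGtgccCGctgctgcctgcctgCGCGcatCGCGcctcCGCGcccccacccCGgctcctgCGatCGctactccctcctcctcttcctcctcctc

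Gabra4, chr5:71658364-71658558: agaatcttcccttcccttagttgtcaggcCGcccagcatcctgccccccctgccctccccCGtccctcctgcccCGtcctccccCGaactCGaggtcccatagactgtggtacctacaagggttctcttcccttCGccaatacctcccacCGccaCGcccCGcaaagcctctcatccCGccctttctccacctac

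Gabra3, chrX:72656920-72657169: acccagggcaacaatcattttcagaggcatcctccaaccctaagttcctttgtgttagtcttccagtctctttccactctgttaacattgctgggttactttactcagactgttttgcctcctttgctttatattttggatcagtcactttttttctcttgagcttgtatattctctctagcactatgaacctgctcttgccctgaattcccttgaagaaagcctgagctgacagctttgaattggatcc

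The Gabra2 stretch of 250 bases held 18 CG dinucleotides and the Gabra4 stretch of 195 bases held 10, after 55 bases next to the start that overlap annotated exons were left out. The Gabra3 stretch of 250 bases held 0. Over the 250 bases before each of 32851 RefSeq starts the median was 6; 21.7% of starts held as many as the 18 of Gabra2, and 7.87% held as few as Gabra3. In that window of 250 bases, on both strands, the GC-box letters GGGCGG occurred 1 time for Gabra2 and 2 times for Gabra4 (32.7% of starts hold it), and the letters TATAAA occurred 1 time for Gabra3 (12.4% of starts). The cAMP-response letters TGACGTCA occurred before none of the 6 members with an entry, and 1.55% of all starts hold them. These matches describe letters only.

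The 7 genes lie on 5 chromosomes of the mouse genome, in GRCm38 coordinates. Gabra2 spans 70958392 to 71095849 on chromosome 5, with Gabra4 (71569734 to 71658308) and Gabrb1 (71657921 to 72149572) at higher coordinates of the same chromosome. Gabra4 and Gabrb1 lie head to head on opposite strands and overlap by 388 bases at their 5′ ends. Gabra5 spans 57407669 to 57591016 on chromosome 7, Gabra3 lies on X (72432676 to 72656919), Gabrb2 on chromosome 11 (42419515 to 42632591) and Gabrd on chromosome 4 (155384979 to 155398098). The kit reads the 3′ end of each transcript, which lies away from that overlap.

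Over all kept cells Gabra2 gave 3199 UMIs in 2195 cells, Gabrb1 2955 in 2096, Gabra4 2328 in 1726, Gabrd 1293 in 1100, Gabra3 541 in 477, Gabra5 433 in 382 and Gabrb2 104 in 100. The 7 genes therefore span a wide range of depth, and values for Gabrb2 rest on few molecules throughout. A UMI stands for the 3′ end of 1 RNA molecule, so levels of different genes were compared in CPM without scaling by length. Whether the genes are captured with equal efficiency was not tested.

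The 7 subunits together were most abundant in spiny neurons. Their summed level was 776 ± 81.5 CPM (SD, n = 3 libraries) in D1 and 833 ± 116 CPM in D2 spiny neurons, 549 ± 90.9 in Tshz1 neurons and 493 ± 26.1 in glutamatergic neurons. It was 651 ± 79.3 CPM (n = 2) in Sst-Npy interneurons, and 517 and 559 CPM in the single libraries of Pvalb and cholinergic interneurons. Astrocytes reached 266 ± 26.6 CPM, OPCs 137 ± 9.32, microglia 40.0 ± 34.9, endothelial cells 34.0 ± 34.5, oligodendrocytes 29.6 ± 23.6 and mural cells 15.3 ± 20.3. No library of a neuron class fell to the level of any library of a glial class.

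**Figure D1:**
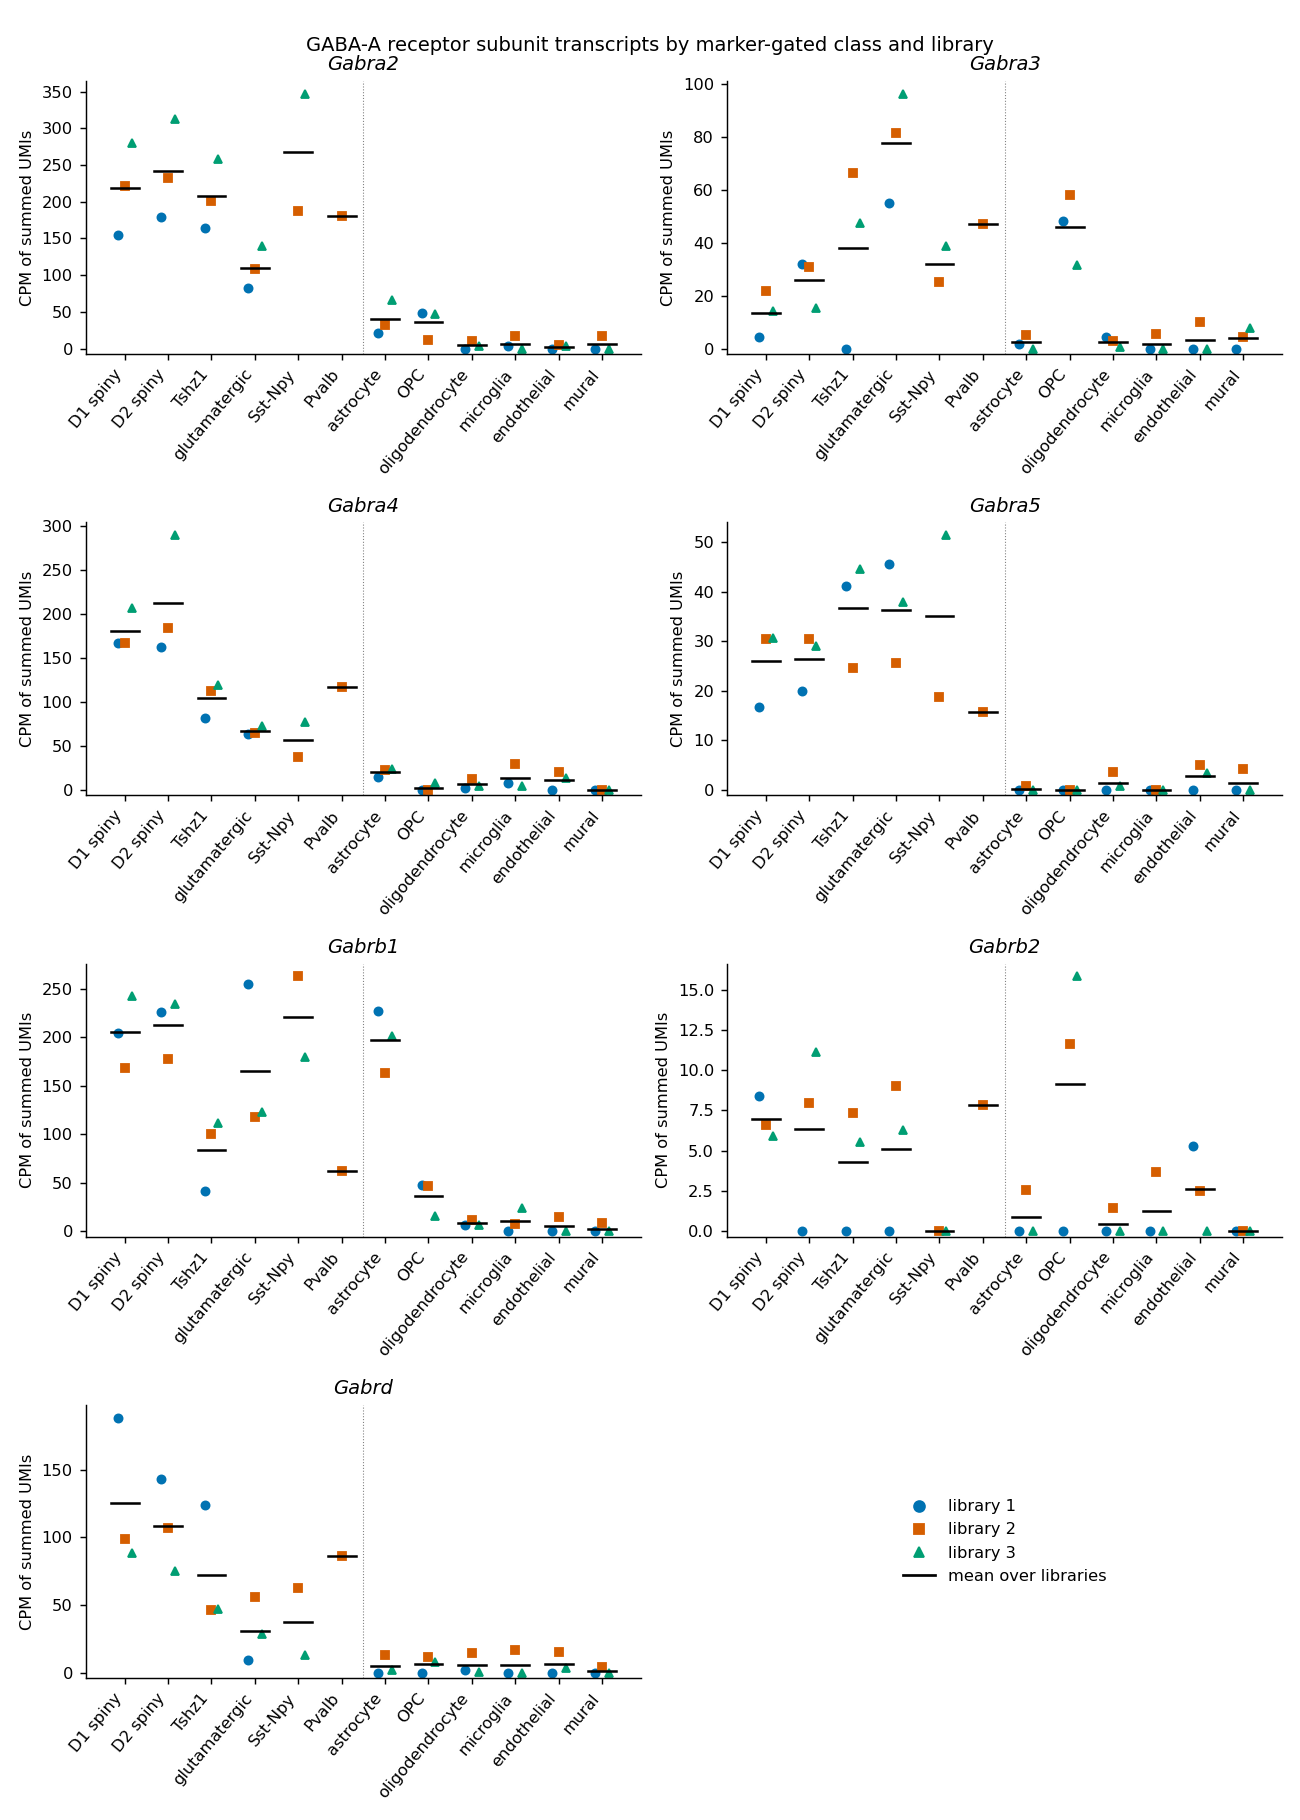
Level of each subunit (y axis, CPM of the UMIs summed over the cells of a class in a library) in 12 marker-gated classes (x axis), with 1 symbol a library and a black line at the mean. Gabra2, Gabra4, Gabrb1 and Gabrd are high in both spiny classes, Gabra3 is highest in glutamatergic neurons, and Gabrb1 is as high in astrocytes (mean 197 CPM) as in spiny neurons.

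Tests between classes used sums of UMIs per library and class in edgeR's quasi-likelihood model, with the library as a block and Benjamini-Hochberg adjustment over 11719 features, and called a gene at an adjusted p under 0.05. Of the 7 subunits 6 passed the filter on low counts. Gabrb2 did not, and is described by its values alone. Each contrast weighted the classes on either side equally, so its fold change can differ from the ratio of the pooled CPM values.

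All 6 tested subunits were higher in neurons than in glia. In that comparison 52.3% of all genes tested were called in either direction, and 3070 of 11719 were called higher in neurons. Gabra2, a synaptic alpha subunit, stood at 205 ± 52.3 CPM in neurons and 17.4 ± 6.57 in glia (log2 fold change 3.12, SE 0.21, adjusted p 2.8e-21). Gabra4, the alpha subunit that pairs with delta, stood at 159 ± 18.8 and 12.6 ± 5.64 CPM (log2 fold change 2.89, SE 0.27, adjusted p 1.5e-14). Gabra5, which forms extrasynaptic receptors elsewhere in the forebrain, stood at 28.8 ± 5.68 and 0.77 ± 0.98 CPM, the latter from 7 UMIs. Gabrb1 differed least, at 189 ± 25.2 and 75.7 ± 19.0 CPM (log2 fold change 1.99, SE 0.26, adjusted p 1.4e-09). Gabra3 stood at 32.7 ± 6.74 and 3.65 ± 1.77 CPM, and Gabrd at 95.6 ± 34.5 and 5.38 ± 7.51 CPM. All 6 were higher in neurons in 3 of 3 libraries. The median log2 fold change of the 6 was 2.79, against -0.09 over all genes tested.

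Among the alpha subunits of spiny neurons Gabra2 and Gabra4 prevailed. Gabra2 in libraries 1, 2 and 3 stood at 155, 222 and 280 CPM in D1 neurons, and at 179, 232.5 and 312 CPM in D2 neurons. Library 1 was lowest and library 3 highest in both classes, and the ranges of the classes overlapped. Gabra4 stood at 167, 167 and 207 CPM in D1 and at 163, 184 and 290 CPM in D2 neurons, also with overlap.

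The remaining alpha genes were low in spiny neurons. Gabra5 averaged 26.0 ± 7.98 CPM in D1 and 26.5 ± 5.76 CPM in D2 neurons. Gabra3, an alpha subunit of synaptic receptors in several brainstem and cortical cell types, gave 4.2, 21.9 and 14.1 CPM in D1 neurons and 31.8, 30.9 and 15.3 CPM in D2 neurons. Within each library Gabra3 was lower in D1 than in D2 neurons, but the ranges overlapped and the D1 value of library 1 rests on 1 UMI.

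The beta subunit of spiny neurons among the members was Gabrb1. It stood at 205, 168 and 242 CPM in D1 neurons and at 226.5, 177 and 234 CPM in D2 neurons, with library 2 lowest in both. Gabrb2, a beta subunit, averaged 6.96 ± 1.28 CPM in D1 and 6.35 ± 5.72 CPM in D2 neurons, from 33 and 26 UMIs. Of the UMIs of both beta genes, Gabrb1 took 96.6% ± 0.86 in D1 and 97.1% ± 2.54 in D2 neurons.

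Gabrd, the delta subunit, stood at 188, 98.8 and 88.2 CPM in D1 neurons and at 143, 107 and 74.9 CPM in D2 neurons. Its order over the libraries was the reverse of that of Gabra2, with library 1 highest and library 3 lowest in both classes. Library 1 was also the library with the fewest UMIs a cell; whether depth bears on this order was not tested.

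No subunit differed between D1 and D2 spiny neurons in edgeR (0 of 6 called, each with an adjusted p of 1, where 0.435% of all genes were called). The fitted log2 differences, D1 over D2, were -0.17 (SE 0.27) for Gabra2, -0.64 (SE 0.39) for Gabra3, -0.26 (SE 0.27) for Gabra4, -0.02 (SE 0.34) for Gabra5, -0.07 (SE 0.28) for Gabrb1 and 0.16 (SE 0.36) for Gabrd. At an unadjusted p under 0.05, 341 of all genes passed, but none of the 6 subunits did, and DESeq2 also called none of them. A p that misses the threshold does not show that the classes hold equal levels.

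Subunit composition was expressed as the share of each gene in the UMIs of the 7 members, as a mean over libraries. D1 spiny neurons held Gabra2 at 28.0% ± 6.30, Gabrb1 at 26.3% ± 2.42, Gabra4 at 23.2% ± 0.70 and Gabrd at 16.4% ± 7.89, with Gabra5 at 3.35%, Gabra3 at 1.75% and Gabrb2 at 0.91%. In D2 spiny neurons the 4 most abundant came in the same order, Gabra2 at 28.6% ± 4.62, Gabrb1 at 25.7% ± 3.55, Gabra4 at 25.1% ± 4.43 and Gabrd at 13.5% ± 5.51, followed by Gabra3 at 3.25%, Gabra5 at 3.19% and Gabrb2 at 0.73%. Among the 4 alpha genes alone, Gabra2 and Gabra4 took 49.4% and 41.8% in D1 neurons and 47.5% and 41.6% in D2 neurons. Over the libraries of D1 neurons the share of Gabra4 was 22.5%, 23.3% and 23.8%, while that of Gabrd ran from 10.2% to 25.3%.

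**Figure D2:**
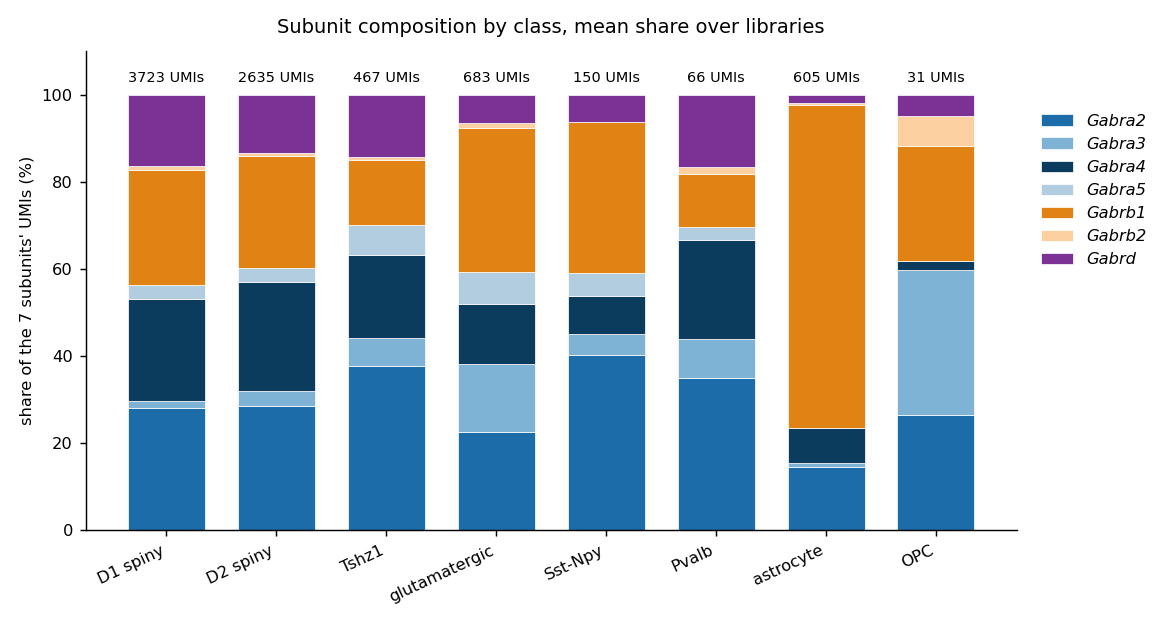
Share of each of the 7 subunits in their summed UMIs (y axis, percent, mean over libraries) in 6 neuron classes, astrocytes and OPCs (x axis), with the UMIs behind each bar above it. Gabra2, Gabrb1 and Gabra4 fill most of the spiny-neuron bars, Gabra3 widens to 15.8% in glutamatergic neurons, and Gabrb1 fills 74.2% of the astrocyte bar.

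Tshz1 neurons, a striatal class named for a transcription factor gene and set apart here from D1 neurons by its markers, differed from D1 neurons in 1 called subunit, Gabra3, which was higher. Gabra2 stood at 165, 201 and 259 CPM, inside the range of D1 neurons, and made up 37.7% ± 2.68 of the members' UMIs. Gabrb1 stood at 41.2, 100.4 and 111 CPM, below every D1 library, and Gabra4 at 82.4, 113 and 120 CPM, also below every D1 library. Gabrd gave 124, 46.5 and 47.3 CPM, which overlapped with D1 neurons. Library 1 had 25 Tshz1 cells and at most 4 UMIs of any subunit, so these values rest mainly on libraries 2 and 3.

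That call was 1 of 6 in edgeR, where 1.8% of all genes were called. Gabra3 in Tshz1 neurons stood at 66.1 and 47.3 CPM in libraries 2 and 3 against 21.9 and 14.1 CPM in D1 neurons (log2 fold change 1.55, SE 0.42, adjusted p 0.028). Library 1 gave 0 Gabra3 UMIs in Tshz1 cells, which allows up to 124 CPM, so the direction held in 2 of 3 libraries. The call was lost without library 2 (adjusted p 0.33), without library 3 (0.62), with the stricter marker gate (0.092) and without the library block (0.29), at log2 fold changes of 1.69, 1.47, 1.53 and 1.55; over its 12 alternatives the adjusted p ran from 0.0052 to 0.62. Gabrb1 (log2 fold change -1.09, SE 0.34, adjusted p 0.080), Gabra4 (-0.89, SE 0.31, adjusted p 0.19) and Gabrd (-1.27, SE 0.46, adjusted p 0.22) did not pass, although each was lower in 3 of 3 libraries. Gabrb1 and Gabrd passed when only the Tshz1 and D1 sums entered the fit (adjusted p 0.017 and 0.028, with ranges over the alternatives of 0.017 to 0.82 and 0.027 to 1.0).

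Glutamatergic neurons differed from spiny neurons in 4 of 6 subunits, where 15.9% of all genes were called. Gabra3 stood at 54.7, 81.4 and 96.1 CPM in glutamatergic neurons and at 18.4, 25.2 and 14.6 CPM in the D1 and D2 spiny neurons together, with no overlap (log2 fold change 2.08, SE 0.31, edgeR adjusted p 1.1e-07). Gabra4 stood at 63.9, 64.8 and 72.5 CPM against 165, 173 and 245 CPM (log2 fold change -1.59, SE 0.28, adjusted p 7.1e-06). Gabra2 stood at 82.1, 108.5 and 140 CPM against 167, 226 and 295 CPM (-1.08, SE 0.26, adjusted p 0.0014). Gabrd stood at 9.1, 55.8 and 28.4 CPM against 165, 101.7 and 82.1 CPM (-1.54, SE 0.38, adjusted p 0.0026).

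Each of these 4 differences had its direction in 3 of 3 libraries and no overlap of the groups. Without library 3 Gabra2 no longer passed (log2 fold change -1.11, adjusted p 0.062). Without the library block neither Gabra2 (adjusted p 0.096) nor Gabrd (0.051) passed; over the 13 alternatives the adjusted p ran from 0.00015 to 0.096 for Gabra2 and from 3.9e-06 to 0.051 for Gabrd. Gabrb1 gave 255.5, 118 and 123 CPM in glutamatergic neurons, with library 1 apart from the others, and was not called (log2 fold change -0.51, SE 0.27, adjusted p 0.23). Gabra5 was not called either, at 45.6, 25.6 and 37.8 CPM (log2 fold change 0.21, SE 0.34, adjusted p 0.78).

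The alpha genes of glutamatergic neurons were thereby more evenly divided. Of the UMIs of the 4 alpha genes Gabra2 took 37.5% ± 3.71, Gabra3 26.3% ± 3.61, Gabra4 23.3% ± 2.51 and Gabra5 12.9% ± 4.98. The share of Gabra3 exceeded that in D1 neurons by 23.4 percentage points (SD 2.12, 3 of 3 libraries), and the share of Gabra4 was lower, with a difference of -18.5 points (SD 4.10, 3 of 3 libraries). Each of these gave an exact two-sided sign-flip p of 0.25, the smallest that 3 libraries allow, and the lowest adjusted value over the 55 share differences computed was 0.43.

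**Figure D3:**
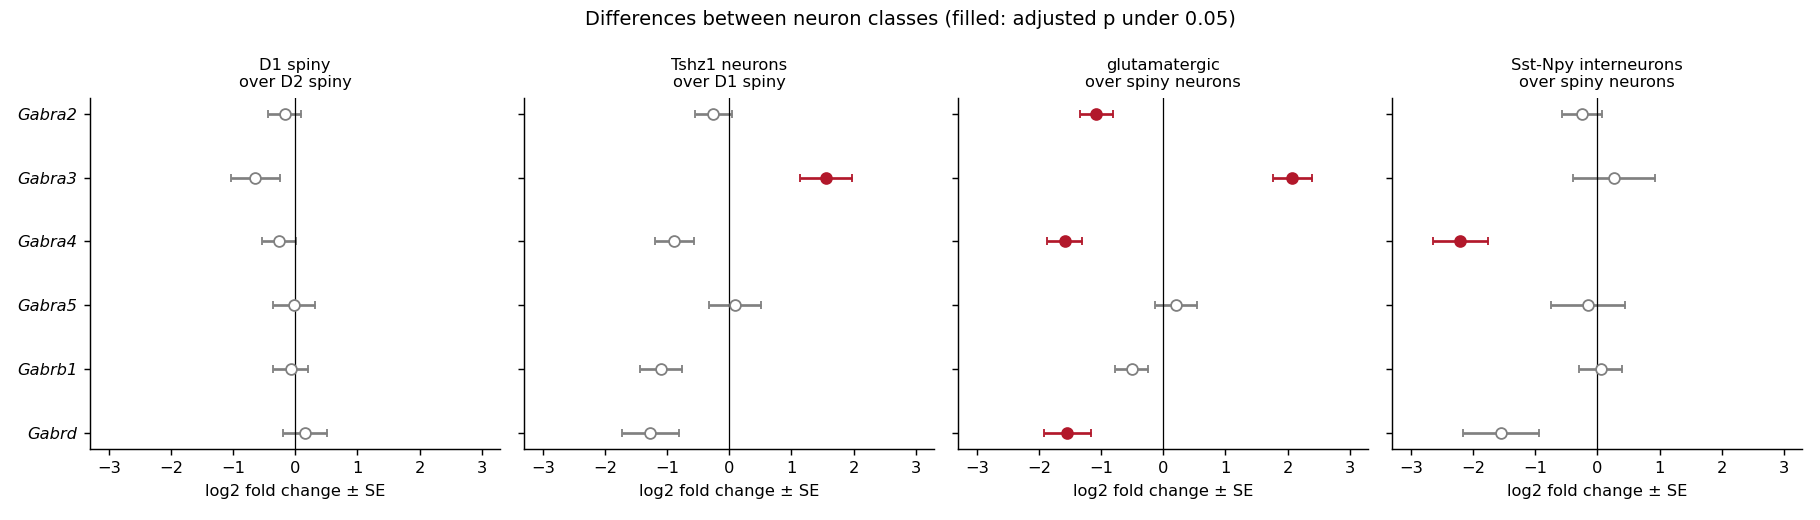
Fitted log2 fold change of 6 subunits (x axis; bars, 1 standard error) in 4 comparisons of neuron classes, 1 panel each, with filled points where edgeR's adjusted p was under 0.05. The D1 over D2 panel has no filled point; the glutamatergic panel has 4, with Gabra3 to the right of 0 and Gabra2, Gabra4 and Gabrd to the left.

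Sst-Npy interneurons, which release somatostatin and neuropeptide Y, stood apart in Gabra4. Their 2 libraries gave 37.6 and 77.1 CPM of Gabra4, from 6 UMIs each, against 173 and 245 CPM in the spiny neurons of the same libraries (log2 fold change -2.21, SE 0.44, edgeR adjusted p 0.00019). It was the only subunit called of 6, where 9.07% of all genes were called. The call did not hold without library 2 (adjusted p 0.053) or when only the sums of these classes were fitted (0.067), the highest of 13 alternatives. Gabra2 stood at 188 and 347 CPM and took 68.6% ± 1.60 of the alpha UMIs, and Gabrb1 stood at 263 and 180 CPM. Gabrd gave 62.6 and 12.8 CPM and was not called (log2 fold change -1.55, SE 0.61, adjusted p 0.11). Gabrb2 gave 0 UMIs in 57 cells, which allows up to 11.95 CPM (3 counts over all its libraries).

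Pvalb interneurons, the fast-spiking cells that carry parvalbumin, could be summed in library 2 alone. In its 27 cells Gabra2 stood at 180 CPM, Gabra4 at 117, Gabrd at 86.1, Gabrb1 at 62.6, Gabra3 at 47.0, Gabra5 at 15.7 and Gabrb2 at 7.83 CPM, from 66 UMIs in all. None of the 6 subunits was called against spiny neurons in edgeR, where 5.42% of all genes were called and 1968 passed an unadjusted p of 0.05, Gabra4 and Gabrb1 among them; DESeq2 called none of the 6. The lone sum was assumed to vary like the others. Gabrb1 had the largest difference (log2 fold change -1.81, SE 0.62, adjusted p 0.071). When arms of at least 5 cells were admitted, an alternative chosen after the data were seen, all 3 libraries entered and Gabrb1 (-1.79, adjusted p 0.0015) and Gabra4 (-1.32, adjusted p 0.012) passed. Their adjusted p over 11 alternatives ran up to 0.27 and 0.55.

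The 10 cholinergic cells, in which the choline transporter Slc5a7 stood at 2815 CPM, gave 264 CPM of Gabrb1 (26 UMIs), 132 CPM of Gabra2 (13 UMIs), 71.1 CPM of Gabra4 (7 UMIs) and 40.6 CPM of Gabra3 (4 UMIs). With 1 library these values have no replicate check.

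In the order of mean levels over classes, with the cholinergic cells set aside, Gabra3 ran from glutamatergic neurons (77.4 ± 21.0 CPM) through Pvalb interneurons (47.0) and OPCs (45.9 ± 13.3) to Tshz1 (37.8 ± 34.1), Sst-Npy (31.8 ± 9.56) and D2 spiny neurons (26.0 ± 9.30), and then D1 spiny neurons (13.4 ± 8.88). The ranges of neighbours over libraries overlapped, except that the Pvalb value lay below all 3 glutamatergic values. Gabra4 ran from D2 (212 ± 67.9) and D1 spiny neurons (180 ± 23.1) through Pvalb (117), Tshz1 (105 ± 19.8) and glutamatergic neurons (67.1 ± 4.73) to Sst-Npy interneurons (57.3 ± 28.0). The D1, Tshz1 and glutamatergic values of Gabra4 did not overlap between classes, while D1 with D2 and glutamatergic with Sst-Npy did. Gabrd ran from D1 (125 ± 54.99) and D2 spiny neurons (108.2 ± 34.1) through Pvalb (86.1), Tshz1 (72.5 ± 44.3) and Sst-Npy (37.7 ± 35.2) to glutamatergic neurons (31.1 ± 23.4), and each of these overlapped with the next. The 10 cholinergic cells of library 2 would stand between OPCs and Tshz1 neurons for Gabra3, between Tshz1 and glutamatergic neurons for Gabra4 and below glutamatergic neurons for Gabrd (30.5 CPM).

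Depth a cell differed between classes, so shares of cells with a UMI were also taken after thinning every cell to 1000 UMIs. Gabra2 was then detected in 19.3% ± 1.91 of D1 and 21.8% ± 6.93 of D2 spiny neurons, 22.4% ± 3.74 of Tshz1 neurons and 7.38% ± 0.74 of glutamatergic neurons. Without thinning the shares were 39.1%, 40.7%, 31.0% and 34.7%, at median depths of 2505, 2396, 1917 and 4171 UMIs. Gabra4 was detected in 17.7% ± 2.41, 18.5% ± 3.99, 10.6% ± 1.09 and 7.54% ± 2.04 of the same classes after thinning. Gabra3 was detected in 0.62%, 2.75%, 4.94% and 5.23% of them, the last with values of 4.44%, 1.48% and 9.76% over libraries. Thinning left out 122 D1, 101 D2, 50 Tshz1 and 8 glutamatergic cells.

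Endothelial cells and microglia, taken as types that should lack these receptors, gave the background at median depths of 1305 and 1038.5 UMIs. After thinning, Gabrb1 was found in 0.47% of endothelial cells, Gabrd in 1.16% and Gabra4 in 2.08%; microglia gave 2.11%, 0.55% and 1.08%, and 0.55% for Gabra2. The mean shares of all 4 genes were above these in the D1, D2, Tshz1 and glutamatergic classes, of which the lowest was 2.79% for Gabrd in glutamatergic neurons. Gabrb2, at 0.33% to 0.90% of those neurons, was near the 0.24% of endothelial cells.

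Most subunits were low in glia, but the mean levels of Gabrb1 in astrocytes and of Gabra3 and Gabrb2 in OPCs were above those of neurons, the last from 3 UMIs. Astrocytes, which are known to carry functional GABA-A receptors, gave 227, 164 and 201 CPM of Gabrb1 in libraries 1 to 3, against 213, 163 and 190 CPM in neurons. Gabrb1 took 74.2% ± 9.98 of the members' UMIs in astrocytes and 26.5% ± 4.03 in neurons, a difference of 47.7 points (SD 6.03, 3 of 3 libraries, exact sign-flip p of 0.25). It was detected in 19.3% ± 2.69 of astrocytes thinned to 1000 UMIs, and in 38.1% ± 9.18 without thinning.

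The 8 neuron markers of the gate stood in astrocytes at a median of 4.12% of their level in neurons (range 2.54% to 6.41%). The gate asked astrocyte markers to lead over these same genes and neurons to carry them, so that range is partly set by the selection of the cells, here and in the other non-neuronal classes. Gabrb1 stood at 104%, Gabra2 at 19.4%, Gabrb2 at 14.9% (3 UMIs), Gabra4 at 13.0%, Gabra3 at 7.18%, Gabrd at 5.03% and Gabra5 at 0.99%. Of these, Gabrd lay inside the range of the neuron markers, Gabra5 below it and Gabra3 just above it, from 16, 1 and 7 UMIs in astrocytes.

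Against oligodendrocytes, astrocytes were higher in 3 of 6 subunits in edgeR. There 34.4% of all genes were called in either direction, and 2181 of 11719 were called higher in astrocytes. Gabrb1 stood at 197 ± 32.1 against 8.38 ± 3.21 CPM (log2 fold change 4.35, SE 0.38, adjusted p 1.3e-15). Gabra2 stood at 39.7 ± 23.9 against 4.56 ± 5.02 CPM (2.72, SE 0.42, adjusted p 9.1e-08), with astrocyte values of 20.8, 31.7 and 66.5 CPM that did not overlap with oligodendrocytes. Gabra4 stood at 20.7 ± 4.79 against 6.46 ± 5.60 CPM (1.44, SE 0.42, adjusted p 0.0049), and did not pass without library 3 (1.16, adjusted p 0.15, the highest of 13 alternatives).

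Against neurons, astrocytes were lower in Gabra2, Gabra3, Gabra4, Gabra5 and Gabrd and higher in Gabrb1, so that all 6 were called where 51.2% of all genes were. The fitted change of Gabrb1 was 0.98 on the log2 scale (SE 0.24, adjusted p 0.0004), although the CPM of astrocytes exceeded that of pooled neurons by only 0.004 to 0.09 on the log2 scale in single libraries. The fit weighted each neuron class equally and applied TMM scaling; without TMM the change was 0.40 and not called (adjusted p 0.18, the highest of 13 alternatives). In that comparison, leaving out TMM shifted the median gene by -0.52. The other 5 ran from -1.75 for Gabra2 to -4.94 for Gabra5, each in 3 of 3 libraries.

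OPCs, the dividing precursors of oligodendrocytes, gave 31 UMIs of the 7 subunits in 130 cells. Gabra3 contributed 10 of them, at 48.2, 58.0 and 31.6 CPM, against 4.2, 2.84 and 0.75 CPM in oligodendrocytes (log2 fold change 3.56, SE 0.80, edgeR adjusted p 0.00035, 3 of 3 libraries). It was the only subunit called of 6, where 19.7% of all genes were called. Gabra2 (8 UMIs, 35.8 ± 20.9 CPM) was not called (1.81, SE 0.71, adjusted p 0.061), but passed without TMM (adjusted p 0.012), in DESeq2 (0.026) and without library 2 (0.0078), and reached 0.81 at the other end of its 12 alternatives. Gabra5 gave 0 UMIs, which allows up to 12.9 CPM. In OPCs the neuron markers stood at a median of 6.40% of their neuronal level (range 0% to 12.8%), Gabrb2 at 159% from 3 UMIs, Gabra3 at 141%, Gabrb1 at 19.5% and Gabra2 at 17.4%. Gabrb2 was also above the highest marker in endothelial cells (45.1% against 20.9%), microglia (21.4% against 6.56%) and oligodendrocytes (8.23% against 3.99%), each from 2 UMIs.

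**Figure D4:**
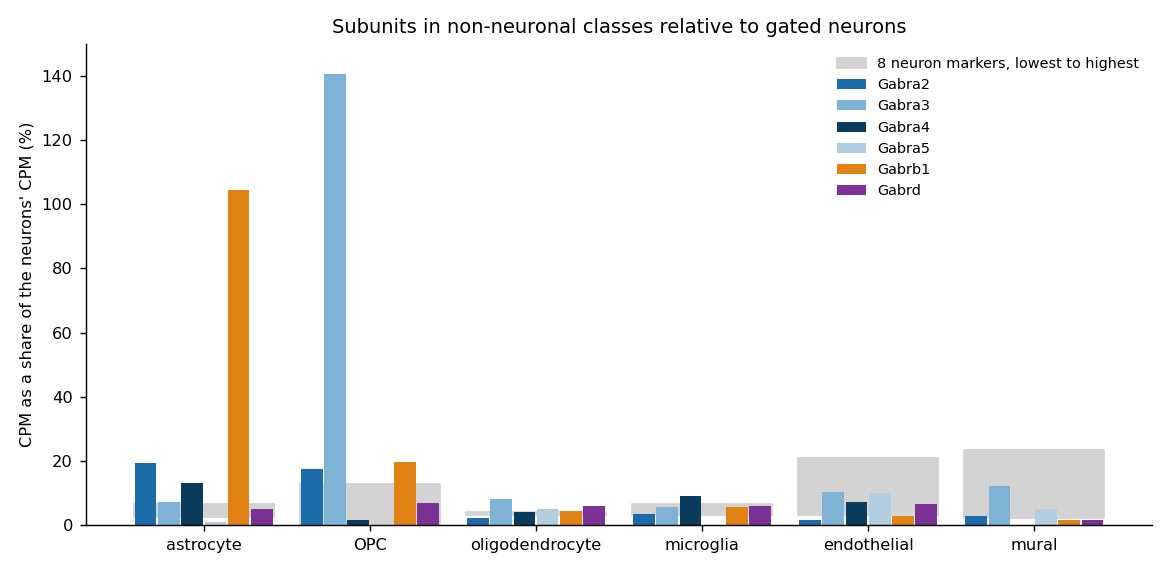
Level of 6 subunits (Gabrb2, with at most 3 UMIs a class, is not drawn) in non-neuronal classes as a percent of its level in gated neurons (y axis), with a grey band from the lowest to the highest of 8 neuron marker genes. Gabrb1 in astrocytes (104%) and Gabra3 in OPCs (141%) lie above the bands of those classes, which end at 6.41% and 12.8%.

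Gabrd in non-neuronal classes differed by library. In library 2 it stood at 12.8 CPM in astrocytes, 11.6 in OPCs, 14.2 in oligodendrocytes, 16.6 in microglia and 14.9 in endothelial cells, while libraries 1 and 3 gave 0 to 7.91 CPM. Library 2 also gave the highest level of most subunits in microglia and endothelial cells. Whether free RNA in library 2 bears on this was not tested.

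Against the UMIs of all GABA-A subunit genes in neurons, Gabra2 took 14.9% ± 2.74, Gabrb1 13.9% ± 2.65 and Gabra4 11.6% ± 0.48. In D1 spiny neurons Gabrb1 took 15.0% ± 2.22. Of 12 other subunit genes 5 passed the filter, and 4 of them were higher in neurons than in glia. There 52.3% of all genes were called in either direction, and 3070 of 11719 were called higher in neurons. Gabrg3, a gamma subunit, was lower in glutamatergic than in spiny neurons (37.3 against 92.1 CPM, a log2 fold change of -1.35 with an SE of 0.31 and an edgeR adjusted p of 0.00052).

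Gabrg1, a gamma subunit known from glia, went with Gabrb1 in astrocytes. It stood at 74.9 ± 9.27 CPM in astrocytes and at 3.60 CPM in oligodendrocytes (log2 fold change 4.33, SE 0.45), and at 17.0 ± 5.89 CPM in neurons (astrocytes over neurons 3.40, SE 0.39). Gabrb1 took 65.9%, 43.0% and 48.3% of all subunit UMIs of astrocytes in libraries 1 to 3, and Gabrg1 19.7% ± 0.92. In Sst-Npy interneurons Gabrg1 was also higher than in spiny neurons (114 against 17.5 CPM, 2.52, SE 0.45, adjusted p 2.4e-05), in 2 of 2 libraries.

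Other genes of GABA signalling were read from fixed lists. Of 17 scaffold and trafficking genes, 11 were higher in neurons than in glia and 2 were lower, where 52.3% of all genes were called in either direction. Among the former, Iqsec3, a gephyrin partner, rose by 3.20 on the log2 scale, Slitrk3, a synaptic adhesion gene, by 3.09 and Lhfpl4, a receptor-associated protein of inhibitory synapses, by 2.58. Of the same 17 genes 0 were called between D1 and D2 neurons, where 0.435% of all genes were. In glutamatergic over spiny neurons 3 were called, all higher (Plcl1 1.38, Iqsec3 1.17 and Trak2 0.93), which is a share near the 15.9% of all genes called there. Iqsec3 was also higher in Sst-Npy interneurons (105 against 16.0 CPM, 2.35, SE 0.45).

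Of 8 genes of GABA synthesis, transport and breakdown, 5 were lower in glutamatergic than in spiny neurons and 0 higher, where 15.9% of all genes were called: Gad2 fell by 4.86, Gad1 by 4.26 and Slc32a1, the vesicular GABA transporter, by 4.13 on the log2 scale. In astrocytes Slc6a11, the glial GABA carrier, exceeded its level in oligodendrocytes by 5.21 on the log2 scale (224 against 4.38 CPM). Of the 2 chloride transporters, Slc12a5, which exports chloride, was higher in neurons than in glia (324 against 15.4 CPM, 3.46, SE 0.24). Slc12a2, which imports it, was lower in neurons (18.5 against 152 CPM, -1.63, SE 0.26). Its level differed among glia, at 303 CPM in oligodendrocytes, 47.4 in OPCs and 22.5 in astrocytes. In astrocytes over neurons Slc12a2 was not called (log2 fold change 0.49, SE 0.32, edgeR adjusted p 0.22).

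GABA-B receptor genes, the metabotropic branch, were tested for 4 of 5 and all 4 were higher in neurons than in glia. Of all 11719 genes tested, 52.3% were called in either direction and 3070 were called higher in neurons. In glutamatergic neurons Gabbr2 was higher than in spiny neurons (172 against 29.4 CPM, 2.45, SE 0.26), and the auxiliary subunits Kctd8 (-4.19, SE 0.57) and Kctd12 (-2.10, SE 0.36) were lower. Kctd8 was lower in Tshz1 than in D1 neurons (19.8 against 38.7 CPM, -1.91, SE 0.53, adjusted p 0.038).

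Over the mean log2 levels of 12 classes, Gabra4 and Gabrd had the highest correlation among the members (Pearson r 0.96), followed by Gabra2 with Gabra4 and with Gabrd (both r 0.90); Gabra3 with Gabra4 gave r 0.50. Among 8270 genes, those with the highest r were Dclk2, Klhl9 and Zcchc18 for Gabra2 (each 0.99), Clec2l (0.96), Sobp (0.95) and Opcml (0.94) for Gabra3, and Gm27032 (0.98), Jakmip1 (0.98) and Kdm4b (0.97) for Gabra4. For Gabra5 they were Dmxl2, Ids and Tmem198 (each 0.99), for Gabrb1 Chst10 (0.99), Tspan7 (0.96) and Tenm3 (0.95), for Gabrb2 Polr3a, Bhlhb9 (each 0.92) and Cxadr (0.90), and for Gabrd Tenm2 (0.98), Sptb (0.98) and Ftx (0.97). These values describe 12 class means that share libraries and depth.

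The FLiCRE reporter, read as at least 1 UMI of the mCherry feature, divided the spiny neurons of each library. Positive D1 cells numbered 14, 315 and 40 in libraries 1 to 3, beside 175, 1005 and 197 negative ones, and positive D2 cells 138 and 22 in libraries 2 and 3, beside 616 and 203. No subunit was called between them in edgeR (0 of 6), where 0.149% of 8745 genes were called, and DESeq2 called none of the 6 either. At an unadjusted p under 0.05, 758 genes passed and no subunit did. Positive cells were deeper, at a median of 3373 against 2501 UMIs in D1 cells of library 2.

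Gabra2 stood at 49.2, 223 and 311 CPM in positive and at 165, 227 and 291 CPM in negative spiny neurons of libraries 1 to 3, where the first value is 1 UMI (log2 fold change 0.02, SE 0.10, adjusted p 0.98). Gabrd stood at 98.4, 86.8 and 83.9 CPM against 197, 107 and 81.7 CPM (-0.26, SE 0.14, adjusted p 0.60). Gabra4 (0.03, SE 0.11) and Gabrb1 (0.11, SE 0.10) had the narrowest errors beside Gabra2, and Gabra3 (0.12, SE 0.26) and Gabra5 (-0.32, SE 0.24) the widest. The groups overlapped for all 6. In library 1 the positive arm held at most 3 UMIs of a subunit. Positive cells were defined by at least 1 detected mCherry UMI, and whether depth bears on the label was not tested. The fit thinned to 1000 UMIs a cell also called 0 of 6.

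**Figure D5:**
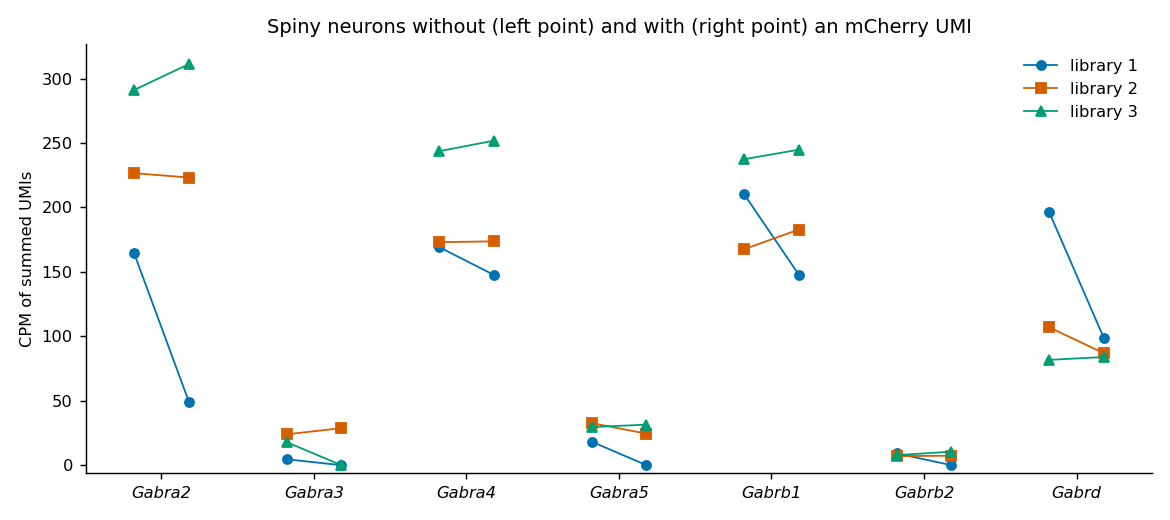
Level of the 7 subunits (y axis, CPM) in mCherry-negative and mCherry-positive spiny neurons, with 1 symbol a library and lines joining the arms of a library. The arms overlap for every subunit, and the fall of Gabra2 in library 1 rests on 1 UMI.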

How the data were processed

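Libraries were prepared with version 2 of the 3′ kit of 10x Genomics, per the labels. The authors deposited 1 pooled matrix of UMI counts, written by Cell Ranger 3.0.0 per the file headers; the build was mm10, per the submitters' processing notes. Whether depth was equalised on pooling is not given in the sources used here. Barcode suffixes gave 3 libraries, and nothing ties a suffix to a replicate number, so a library's number is only a name. The 3 construct features (mCherry, TEV, tTA) stayed in the class totals and class fits and were left out of the reporter fit.

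Of 11625 cells, 10291 had 300 or more genes and no more than 20% of UMIs from mitochondrial genes. The cells with the highest Scrublet scores were removed at 0.8% per 1000 cells of a library (368 cells), because the automatic threshold marked 2 of 6079 cells in library 2; 9923 remained. A broad class needed at least 3 detected markers and a lead of 0.2 in the share of its list, and a neuron class 2 markers and a lead of 0.08, or, for the Sst-Npy and Pvalb classes, 5 and 3 UMIs of their markers and more than of the spiny markers. UMI counts were summed per library and class and given as CPM, and tested with edgeR 4.0.16 in R 4.3.3 (quasi-likelihood, TMM, filterByExpr, library as a block, Benjamini-Hochberg), checked on simulated data first; DESeq2 1.42.0 was an alternative. Intervals and limits from 0 counts (3 counts) cover counting error only. The library is a block by construction, because a library gives sums for each of the classes compared.

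All 7 subunits are named in every comparison; of the other lists, up to 4 genes a list and comparison are named, those with the largest fold change among genes with an adjusted p under 0.05 and 1 direction in all libraries; genes named outside this rule were chosen after their values were seen. Some genes of the lists are not reported here by name; counts cover whole lists. The subunits, lists and marker genes were chosen with earlier results of these data known. The alternatives were other scaling, filters, gates, depth, fits and left-out libraries. Promoters came from RefSeq (GRCm38.p6), with an entry for 6 of the 7 genes.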

Additional observations from a re-analysis of the deposited data

How the results depend on the processing

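Of 760 fold changes recomputed for 60 results, 738 stayed on the same side of the threshold in the same direction, 11 lost a call, 11 gained one and 0 reversed while called; of 129 recomputed counts of subunits called, 113 were within 1.5 times the main count. Without the library as a replicate block, 0 subunits were called between Tshz1 and D1 neurons (1 with it) and 2 between glutamatergic and spiny neurons (4 with it); it moved no other count of subunits by over 1.5 times. For Tshz1 over D1 the stricter gate gave 0, no low-count filter 3 and only these sums in the fit 2, and leaving out a library 0 to 1. For Sst-Npy over spiny neurons (1 called), no filter gave 2, only these sums 0, arms of at least 5 cells 2, and leaving out a library 0 to 1. Pvalb over spiny neurons went from 0 to 2 when arms of at least 5 cells were admitted (a setting added after the data were seen). OPC over oligodendrocytes (1 called) gave 2 in DESeq2, 2 without TMM, 0 with only these sums, where Gabra3 was not tested, and 1 to 2 without a library. Except for that last case the cause was not tested.

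Shares changed by construction when all subunit genes formed the denominator: Gabra2 took 14.9% in neurons, 15.9% in D1, 16.5% in D2, 17.2% in Tshz1, 20.8% in Sst-Npy and 16.4% in Pvalb cells, Gabrb1 43.8% in glia, 13.2% in glutamatergic neurons, 52.4% in astrocytes and 16.5% in oligodendrocytes, and Gabra3 17.6% in OPCs. With cells of at least 1000 UMIs Gabra2 took 34.7% in Tshz1 neurons and Gabrb1 53.7% in oligodendrocytes, and with the stricter gate Gabra3 took 18.9% in OPCs. Leaving out a library moved Gabra2 over 25.9% to 31.6% in D1, 26.8% to 31.2% in D2, 36.2% to 38.6% in Tshz1, 26.2% to 31.8% in all neurons and 31.6% to 49.1% in Sst-Npy cells. It moved Gabrb1 over 68.4% to 77.2% in astrocytes, 57.1% to 71.6% in glia, 24.9% to 37.7% in glutamatergic neurons and 30.2% to 41.0% in oligodendrocytes, Gabra3 over 29.2% to 37.5% in OPCs and Gabra4 over 26.9% to 51.9% in microglia.

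Counts over all genes changed by over 1.5 times as follows. D1 over D2 went from 51 to 81 without a filter, 322 with only these sums, 21 without the block, 30 without library 2 and 29 without library 3. Tshz1 over D1 went from 211 to 108 in DESeq2, 68 without the block, 136 with the stricter gate and 24 without library 3. Glutamatergic over spiny went from 1860 to 1173 without the block and 907 without library 3. Sst-Npy went from 1063 to 149 with only these sums, 427 without library 2 and 404 without library 3, and Pvalb from 635 to 354 without the block and 1464 with arms of 5 cells. Astrocytes over oligodendrocytes went from 4036 to 2423 without library 3, and OPC over oligodendrocytes from 2308 to 1537 with only these sums and 1139 without library 3. The reporter comparison went from 13 to 37 without TMM, 28, 0 and 6 without library 1, 2 and 3, 4 with the stricter gate, 1 against cells with TEV or tTA, and 0 in DESeq2, without the block, thinned, and at 2 mCherry UMIs.

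Scaling moved the median gene. Without TMM it shifted by 0.44 in neurons over glia, -0.52 in astrocytes over neurons, 0.67 in OPC over oligodendrocytes, 0.11 in Tshz1 over D1, 0.14 in Sst-Npy and 0.15 in Pvalb, and the share of calls that were higher went from 50.1% to 69.1%, 56.4% to 36.6%, 44.2% to 75.6%, 53.6% to 68.5%, 44.2% to 55.9% and 40.9% to 55.7%. In DESeq2 it shifted by -0.14 to 0.33, and the higher share was 75.0% for Tshz1, 75.3% for Sst-Npy, 74.9% for Pvalb, 64.6% for astrocytes over oligodendrocytes, 65.2% for OPC and 52.8% for D1 over D2 (64.7% in edgeR, and 54% for astrocytes over oligodendrocytes); for the reporter it went from 61.5% to 48.6% without TMM. Sums of few cells limit the Tshz1 values of library 1, the interneurons and OPCs.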
